A study of Mus musculus with 12 samples.

Results

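The annexins examined here are 10 mouse genes, Anxa1, Anxa2, Anxa3, Anxa4, Anxa5, Anxa6, Anxa7, Anxa9, Anxa11 and Anxa13, out of 26301 genes counted in the liver libraries. They were picked on the higher level of Anxa5 in DKO tumors than in control livers, so the difference between DKO tumors and control livers is given below as a description and is not used as evidence. All 10 passed the filter on low counts. The 2 remaining annexins, Anxa8 and Anxa10, did not, with 2 to 13 and 0 to 2 counts per library.

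RNA was sequenced from 12 mice of an end-of-life study of ageing animals, bred on an FVB background, with the control livers labelled adult. Of these, 4 were wild-type mice that gave control liver without tumor, 4 gave a liver tumor with E2f7 and E2f8 deleted by Alb-Cre (DKO), and 4 gave a liver tumor with Rb1, E2f7 and E2f8 deleted by Alb-Cre (TKO). Alb-Cre is driven by the albumin promoter, which the paper describes as specific to hepatocytes. Whether other cells of a tumor kept these genes was not tested. The tumors thus differ from the control livers in genotype and in being tumors, and these cannot be told apart. The paper reports shorter lives and a shorter tumor latency in TKO than in DKO mice. The ages of the 12 mice were not given in the sources used here. TKO and DKO tumors may therefore also differ in age, which cannot be told apart from genotype.

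Annexins are proteins that bind phospholipid membranes in the presence of calcium, through a conserved core of repeated domains that follows a variable N-terminal tail. Annexin A5 binds phosphatidylserine, a lipid that healthy cells keep on the inner face of the plasma membrane, and is widely used to stain dying cells. Annexin A2 forms a complex with S100a10 at the cell surface and takes part in plasminogen activation, annexin A1 acts on formyl peptide receptors to dampen inflammation, and annexin A6 carries a duplicated core. Annexins A4 and A13 are known from polarised epithelia such as ducts and intestine.

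The total count per library was 9165812 to 16424973, and 13882 genes were tested with edgeR's quasi-likelihood test (Benjamini-Hochberg adjustment over all of them, called at an adjusted p under 0.05). Rb1 was lowest in the 4 TKO tumors (3.21 to 5.47 counts per 1000000 counts of the TMM-scaled total, CPM, against 6.52 to 11.3 in the other 8 libraries). E2f7 had only 4 to 24 counts per library and E2f8 was not lower in the tumors (99 to 681 counts against 61 to 88 in controls), so gene-level counts do not check their deletion. TKO 3 stood apart: over all tested genes its median absolute log2 difference was 0.262 to the control mean and 0.296 to the mean of the other TKO tumors, whereas TKO 1 and TKO 2 were closer to their own group and TKO 4 was about as far from either (0.323 and 0.325). Comparisons of TKO tumors are therefore also given without TKO 3 for Anxa5 and Anxa2 and for the annexin sums and shares, and as log2 differences from controls for the other genes. Since TKO 3 was set apart by its closeness to the controls, leaving it out leans towards larger differences from controls. The values without it are a description. Hepatocyte markers were abundant in every library, with albumin at 37567.7 to 286273 CPM. In bulk tissue, fewer cells of a type and less RNA per cell cannot be told apart.

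The promoters of Anxa5 and Anxa2, the genes with the largest log2 differences between DKO tumors and controls, are shown first. They are given because E2f7 and E2f8, deleted in both tumor genotypes, encode transcription factors that bind DNA. The promoter of Anxa1 is shown for the TATA element it shares with Anxa2. RefSeq (GRCm38.p6) gave a promoter, from 250 bases before to 50 bases after the start, for 7 of the 10 genes. Anxa3, Anxa6 and Anxa13 had none in the table. Each is written 5′ to 3′ on the strand of the gene, with matches to the GC box (GGGCGG) and to the TATA element (TATAAA) in capitals. Anxa5 lies at chr3:36475838-36476137 on the minus strand, Anxa2 at chr9:69453433-69453732 on the plus strand and Anxa1 at chr19:20390622-20390921 on the minus strand.
Anxa5: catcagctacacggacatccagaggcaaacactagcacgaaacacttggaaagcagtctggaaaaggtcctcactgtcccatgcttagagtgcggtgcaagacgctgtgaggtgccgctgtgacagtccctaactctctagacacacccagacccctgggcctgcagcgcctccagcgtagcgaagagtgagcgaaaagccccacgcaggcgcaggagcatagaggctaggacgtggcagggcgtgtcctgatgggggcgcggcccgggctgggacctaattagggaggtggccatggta
Anxa2: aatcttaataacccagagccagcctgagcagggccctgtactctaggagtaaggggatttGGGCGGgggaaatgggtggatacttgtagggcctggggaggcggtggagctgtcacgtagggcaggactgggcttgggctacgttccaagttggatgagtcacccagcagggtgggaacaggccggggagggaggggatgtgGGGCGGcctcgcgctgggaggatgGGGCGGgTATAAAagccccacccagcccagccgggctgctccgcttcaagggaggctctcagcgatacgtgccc
Anxa1: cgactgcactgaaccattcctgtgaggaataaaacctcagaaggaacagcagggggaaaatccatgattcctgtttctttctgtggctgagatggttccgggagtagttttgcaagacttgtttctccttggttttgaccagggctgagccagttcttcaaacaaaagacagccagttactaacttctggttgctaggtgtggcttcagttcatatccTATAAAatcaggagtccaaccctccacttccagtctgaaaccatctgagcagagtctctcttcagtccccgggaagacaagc
The Anxa5 promoter held neither element, whereas that of Anxa2 held 3 copies of GGGCGG and 1 TATAAA, and that of Anxa1 held 1 TATAAA. Of 32851 mouse promoters of this length, 35.7% held GGGCGG and 13.6% TATAAA on either strand. The E2F-type letters TTTGGCGC, TTTCGCGC, TTTCCCGC, TTTGCCGC and TTCCCGCC, which overlap each other in part, were found on neither strand of any annexin promoter in the table, and 3.89% of all promoters held at least 1 of them. This says only that these letters are not in these windows.

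Anxa5 (Entrez 11747; mm9 chr3:36347847-36374765, minus strand) differed most between the groups of the 10 annexins. Control livers had 34.3, 18.7, 27.0 and 25.8 CPM (controls 1 to 4), DKO tumors had 193, 100.5, 172 and 187 CPM (DKO 1 to 4), and TKO tumors had 135, 122, 37.4 and 105 CPM (TKO 1 to 4). All 8 tumors were thus above all 4 control livers, but TKO 3 was only just above the highest control. Group means were 26.4 ± 6.38 CPM in controls, 163 ± 42.6 in DKO tumors and 99.7 ± 43.3 in TKO tumors (SD, n = 4 each). The level was 6.16-fold that of controls in DKO tumors (log2 difference 2.62, SE 0.364), which is the value the genes were picked on.

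In TKO tumors, which were not used for the choice although the control livers were, Anxa5 was 3.77-fold the control level. Its log2 difference was 1.91 (SE 0.355, 95% interval 1.14 to 2.68), and it did not pass edgeR's quasi-likelihood test with an adjusted p of 0.0750. DESeq2, the tool of the study, called it with an adjusted p of 8.53e-05 and a log2 difference of 1.90. Without TKO 3 the other 3 tumors had 121 ± 14.8 CPM (SD, n = 3), the log2 difference was 2.18 and edgeR's adjusted p was 0.00854. The call in TKO tumors therefore depended on the tool and on this library. TKO 3 was set apart by its closeness to the controls, so the larger difference without it is a description and not further evidence.

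Between the tumor genotypes, Anxa5 was lower in TKO than in DKO tumors by 0.71 on the log2 scale, with a 95% interval from -1.45 to 0.04 (edgeR SE 0.343, adjusted p = 0.572). An exact two-sided permutation test over the 70 assignments of 4 tumors against 4 gave p = 0.114, where the smallest it can give is 0.0286. Without TKO 3 the log2 difference was -0.44 (edgeR adjusted p = 0.832). A difference in the level of Anxa5 between the genotypes was therefore not shown, and the interval still holds a level in TKO tumors well below that in DKO tumors. Anxa5 was picked for its high level in these DKO tumors, so the choice itself leans this comparison towards lower levels in TKO tumors.

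**Figure D1:**
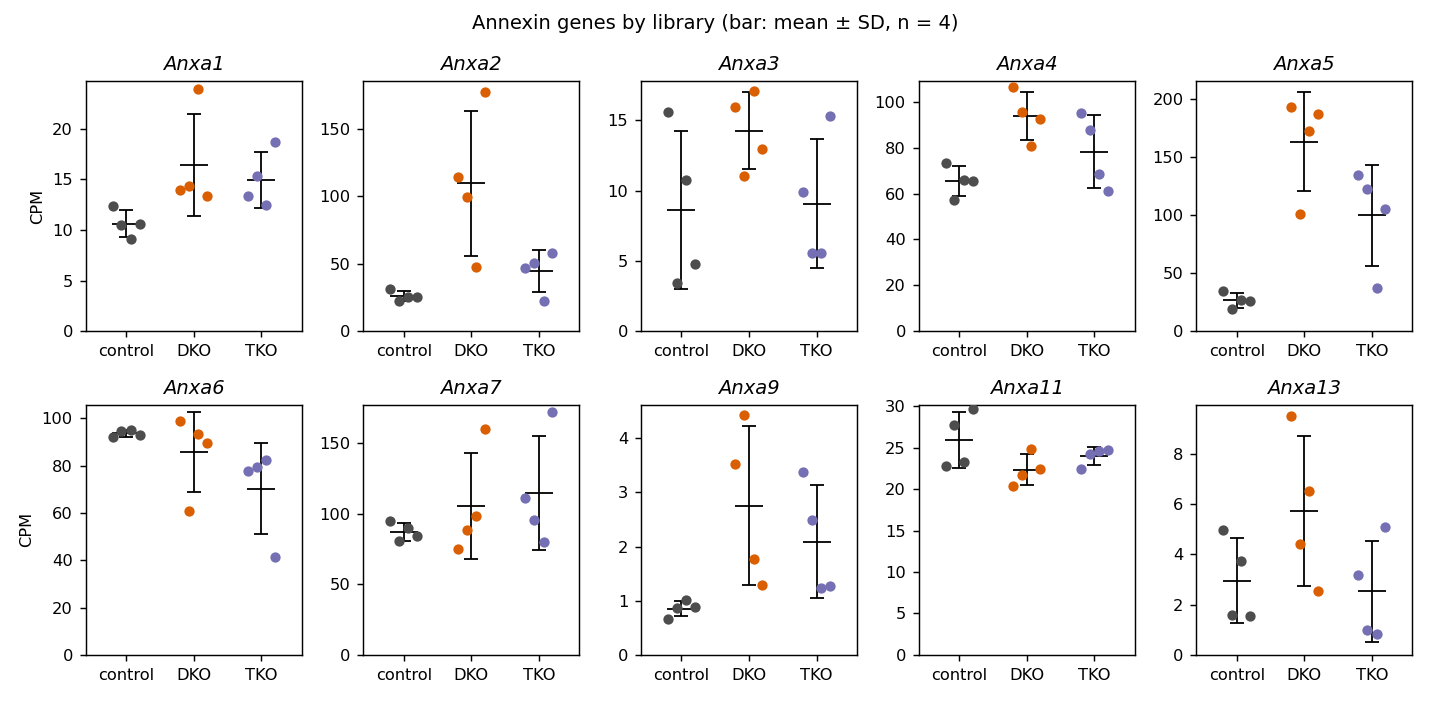
Levels (CPM, linear axes starting at 0) of the 10 annexin genes in each library, with a point per library (replicates 1 to 4 from left to right) and black bars for the mean ± SD of 4 libraries. Anxa5 and Anxa2 are higher in all 4 DKO tumors than in all control livers, and the low TKO point in both panels is TKO 3.

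Anxa2 (Entrez 12306; mm9 chr9:69301427-69339602, plus strand) encodes the subunit that anchors S100a10 at the membrane. It was at 31.4, 22.7, 25.0 and 25.2 CPM in control livers, at 114, 99.5, 47.3 and 178 CPM in DKO tumors and at 47.0, 50.2, 22.5 and 58.3 CPM in TKO tumors. DKO tumors did not overlap the controls and DKO 4 was highest, while in TKO 3 the level was below all 4 controls. The level in DKO tumors was 4.19-fold that of controls (log2 difference 2.07, SE 0.365), again a description. Its exons overlap the antisense gene Gm16144, and since the strand setting of the counting was not given in the sources used here, reads of the pair cannot be told apart.

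In TKO tumors Anxa2 was higher than in controls by 0.77 on the log2 scale (SE 0.355, edgeR adjusted p = 0.308), with a 95% interval from just below 0 to 1.54. Without TKO 3 the other 3 tumors had 51.8 ± 5.78 CPM, and each exceeded every control. Anxa2 also had the widest gap in the edgeR fit between the tumor genotypes of the 10 genes, with a log2 difference of -1.30 for TKO against DKO tumors (SE 0.355, 95% interval -2.07 to -0.53). It did not pass after adjustment over all genes (edgeR p = 0.00314, adjusted p = 0.421), and the exact permutation test gave p = 0.0857. Without TKO 3 the log2 difference was -1.08 (edgeR adjusted p = 0.690).

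Anxa5 and Anxa2 thus had different orders over the DKO tumors. The ratio of Anxa5 to Anxa2 per kilobase of exon was 8.10 in DKO 3, where Anxa2 was lowest, and 2.24 to 3.76 in the other DKO tumors. It was 2.23 ± 0.277 in control livers, 4.11 ± 2.75 in DKO tumors and 4.87 ± 1.24 in TKO tumors (SD, n = 4 each), or 5.25 ± 1.18 in the 3 TKO tumors other than TKO 3. The size of the ratio depends on the exon lengths taken, 1678 bases for Anxa5 and 3731 for Anxa2 over all annotated exons. Its differences between libraries do not.

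Anxa1 (Entrez 16952; mm9 chr19:20447918-20465434, minus strand), the annexin that acts through formyl peptide receptors, was a low-level gene with a small difference. Control livers had 12.4, 10.5, 9.15 and 10.5 CPM, DKO tumors had 13.95, 14.3, 24.0 and 13.3 CPM, and TKO tumors had 13.3, 15.3, 12.5 and 18.7 CPM. Both tumor groups lay above the controls without overlap, though the lowest tumor, TKO 3, exceeded the highest control by only a small margin. The log2 difference from controls was 0.63 (SE 0.207) in DKO and 0.49 (SE 0.208, edgeR adjusted p = 0.268) in TKO tumors.

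Anxa4 (Entrez 11746; mm9 chr6:86686834-86743578, minus strand), an annexin of secretory and ductal epithelia, was at 73.2, 57.3, 65.8 and 65.5 CPM in control livers. DKO tumors had 107, 95.4, 80.7 and 92.4 CPM, all above the controls. TKO tumors had 95.1, 87.8, 68.7 and 61.2 CPM, with TKO 3 and TKO 4 inside the control range. The log2 difference from controls was 0.52 (SE 0.157) in DKO and 0.26 (SE 0.157, edgeR adjusted p = 0.447) in TKO tumors.

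Anxa9 (Entrez 71790; mm9 chr3:95100018-95111098, minus strand) had the lowest mean of the 10 genes in each group, with 7 to 56 counts per library. It was at 0.667, 0.861, 1.02 and 0.879 CPM in control livers, at 3.53, 4.43, 1.77 and 1.30 CPM in DKO tumors and at 3.38, 2.49, 1.23 and 1.27 CPM in TKO tumors. All 8 tumors were above all controls, and replicates 1 and 2 of each tumor genotype were the highest. The log2 difference was 1.67 (SE 0.460) in DKO and 1.29 (SE 0.461, edgeR adjusted p = 0.206) in TKO tumors. Its exons overlap those of a gene on the opposite strand listed as Fam63a in GENCODE and as Mindy1 in RefSeq, so part of so small a count may belong to that gene. Mindy1 itself was at 65.3 to 107 CPM, with log2 differences from controls of -0.14 in DKO and -0.08 in TKO tumors.

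Anxa6 and Anxa7 are the annexins with the highest levels per length in control liver. Anxa6 (Entrez 11749; mm9 chr11:54792610-54846947, minus strand) varied little among controls at 92.0, 94.4, 94.9 and 92.8 CPM. DKO tumors had 98.8, 60.8, 93.5 and 89.4 CPM and TKO tumors had 77.8, 79.2, 82.2 and 41.6 CPM. All 4 TKO tumors were thus below all controls, and TKO 4 was far below the rest of its group. The log2 difference was -0.13 (SE 0.209) in DKO and -0.41 (SE 0.209, edgeR adjusted p = 0.351) in TKO tumors.

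Anxa7 (Entrez 11750; mm9 chr14:21274483-21299355, minus strand), an annexin linked to membrane fusion in secretion, was at 94.9, 80.5, 89.5 and 84.0 CPM in control livers. DKO tumors had 75.0, 88.6, 98.1 and 160.3 CPM and TKO tumors had 111, 95.3, 80.2 and 172 CPM. The tumor groups overlapped the controls, with 1 high tumor in each, DKO 4 and TKO 4. The log2 difference was 0.27 (SE 0.259) in DKO and 0.39 (SE 0.260, edgeR adjusted p = 0.481) in TKO tumors.

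Anxa11 (Entrez 11744; mm9 chr14:26661669-26706290, plus strand), whose protein ties RNA granules to lysosomes, had the narrowest range over the 12 libraries as a ratio of the highest to the lowest. Control livers had 22.8, 27.8, 23.2 and 29.7 CPM, DKO tumors had 20.4, 21.7, 24.8 and 22.4 CPM, and TKO tumors had 22.4, 24.3, 24.6 and 24.8 CPM. The 3 groups overlapped. The log2 difference was -0.21 (SE 0.118) in DKO and -0.11 (SE 0.118, edgeR adjusted p = 0.707) in TKO tumors, and scaling by total counts alone turned the latter to 0.05.

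Anxa3 (Entrez 11745; mm9 chr5:97222404-97274987, plus strand) and Anxa13 (Entrez 69787; mm9 chr15:58173429-58197682, minus strand), an annexin of epithelial apical membranes, varied widely inside the control group. Anxa3 was at 15.6, 3.44, 10.8 and 4.76 CPM in control livers, at 15.9, 11.1, 17.1 and 12.97 CPM in DKO tumors and at 9.89, 5.54, 5.60 and 15.3 CPM in TKO tumors. Anxa13 was at 4.97, 1.60, 3.73 and 1.54 CPM in control livers, at 9.51, 4.43, 6.51 and 2.54 CPM in DKO tumors and at 3.20, 0.995, 0.844 and 5.07 CPM in TKO tumors. In both genes controls 1 and 3 and TKO 1 and 4 were higher than the other libraries of their group. Against controls the log2 difference in DKO tumors was 0.71 (SE 0.442) for Anxa3 and 0.94 (SE 0.596) for Anxa13. In TKO tumors it was 0.06 (SE 0.443, edgeR adjusted p = 0.968) for Anxa3 and -0.24 (SE 0.605, adjusted p = 0.888) for Anxa13, and both signs turned when single libraries were left out.

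The same libraries were high and low for Epcam and Krt19, markers of bile duct cells. Epcam was at 9.20, 0.738, 7.59 and 1.68 CPM in controls, 10.7, 7.67, 13.8 and 6.84 CPM in DKO tumors and 6.15, 0.426, 1.07 and 10.7 CPM in TKO tumors. Krt19 was at 3.93, 0.492, 3.52 and 1.10 CPM in controls, 6.67, 3.72, 6.27 and 3.30 CPM in DKO tumors and 3.74, 0.497, 1.38 and 6.19 CPM in TKO tumors. Neither marker passed the test between any of the groups. The part of bile duct cells in the levels of Anxa3 and Anxa13 was not tested.

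**Figure D2:**
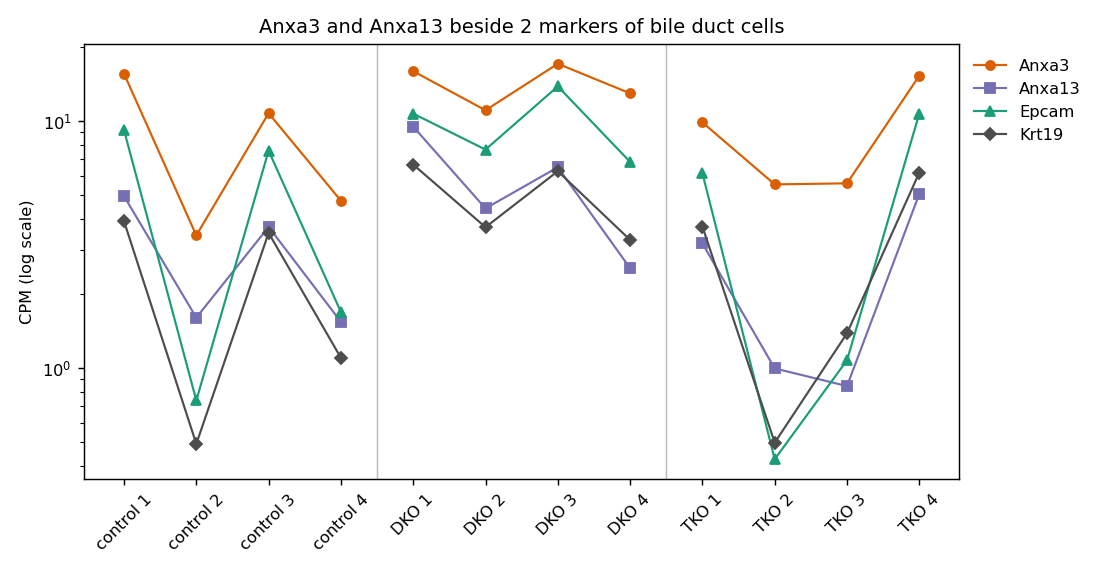
Levels (CPM, log axis) of Anxa3, Anxa13, Epcam and Krt19 in the 12 libraries, with lines joining the libraries of a group only to guide the eye. Control 2, control 4, TKO 2 and TKO 3 are low and control 1, control 3, TKO 1 and TKO 4 are high within their groups for all 4 genes. Cdh1, a marker of the same list that is not drawn, had another order.

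Set beside all genes, 5 of the 10 annexins (Anxa1, Anxa2, Anxa4, Anxa5 and Anxa9) were higher in DKO tumors than in controls with no overlap of the groups, where 8.87% of tested genes were, and 0 were lower without overlap, where 7.3% were. edgeR called 2 of the 10 (Anxa2 and Anxa5), beside 2.42% of all genes, and DESeq2 called 4 (Anxa2, Anxa4, Anxa5 and Anxa9), beside 10.4%. Nothing is read from these counts, since the genes were picked on this contrast. The median log2 difference of the 10 genes was 0.67, with 0.02 over all tested genes.

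In TKO tumors against controls, edgeR called 0 of the 10, beside 0.0864% of all genes, and 3 (Anxa1, Anxa5 and Anxa9) had an unadjusted p under 0.05, as did 16.3% of all genes. DESeq2 called 1, Anxa5, beside 3.49% of all genes. Without overlap, 3 annexins (Anxa1, Anxa5 and Anxa9) were higher, beside 4.38% of genes, and 1 (Anxa6) was lower, beside 3.29%. The median log2 difference was 0.33, with 0.02 over all genes. The control livers are the same as in the DKO comparison, so the sets of differences are not independent of each other. Without TKO 3 the log2 differences of the genes other than Anxa5 and Anxa2 were 0.56 for Anxa1, 0.23 for Anxa3, 0.31 for Anxa4, -0.50 for Anxa6, 0.53 for Anxa7, 1.47 for Anxa9, -0.12 for Anxa11 and 0.04 for Anxa13, and edgeR called none of the 8.

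Between TKO and DKO tumors, edgeR called 0 of the 10 and 0% of all genes, although 1250 genes (9.0%) and 1 annexin, Anxa2, had an unadjusted p under 0.05. DESeq2 called 0 annexins, beside 0.398% of genes. No annexin separated the genotypes without overlap, which 2.75% of genes did with TKO tumors higher and 2.12% with TKO tumors lower. The log2 difference was below 0 for 8 of the 10, all but Anxa7 and Anxa11 (Anxa1 turned without DKO 3, and Anxa7 without DKO 1 or TKO 4), with a median of -0.33 against 0.01 over all genes. The DKO tumors enter both this comparison and the choice of the genes.

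For the 8 annexins not yet compared between the tumor genotypes, the exact permutation test gave unadjusted p-values of 0.114 for Anxa3, 0.143 for Anxa13, 0.171 for Anxa4, 0.229 for Anxa11, 0.371 for Anxa6, 0.514 for Anxa9, 0.657 for Anxa7 and 0.714 for Anxa1. The 95% intervals of the log2 difference were widest for Anxa13 (-2.48 to 0.12) and narrowest for Anxa11 (-0.15 to 0.36). At this number of tumors a fall by a factor of 2 in Anxa3 (-1.61 to 0.30) could not be told from no difference, whereas for Anxa11 it lay outside the interval.

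**Figure D3:**
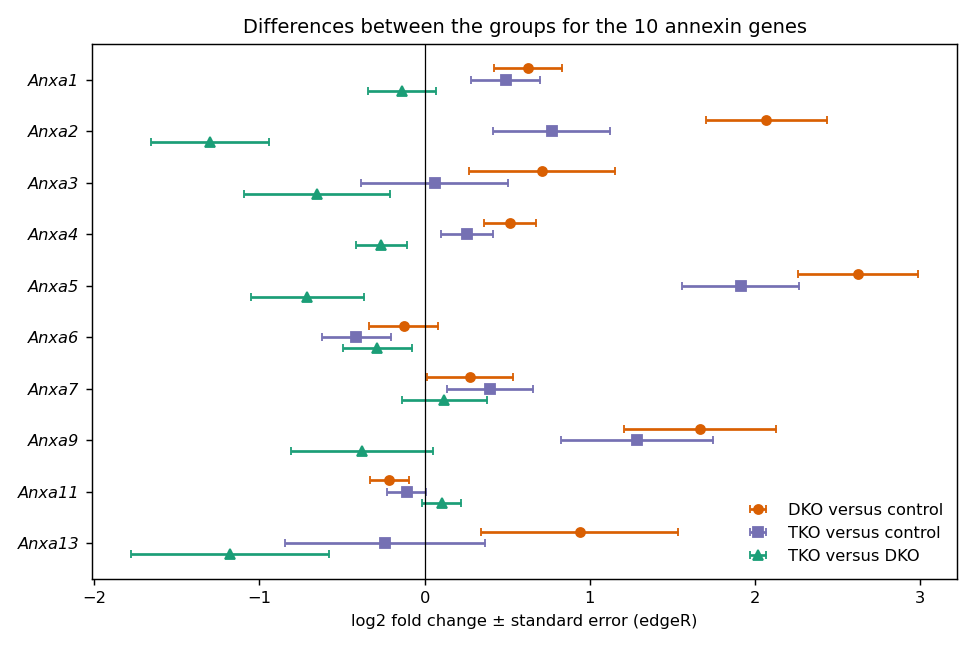
Log2 fold changes with standard errors (edgeR) of the 10 annexin genes for DKO tumors against control livers, TKO tumors against control livers, and TKO against DKO tumors, with the vertical line at no difference. Anxa5 lies at 2.62, 1.91 and -0.71, and Anxa2 at 2.07, 0.77 and -1.30. The DKO values are a description because the genes were picked on that contrast, and the comparisons share libraries.

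Per kilobase of exon, the order of the annexins differed between the groups. The length was that of all annotated exons of a gene, with 1678 bases for Anxa5, 3731 for Anxa2 and 4645 for Anxa4. The transcripts present in these libraries were not determined and can be shorter. The order between genes, the sums and the shares below therefore depend on these lengths. Differences between the groups in the same gene do not. In control livers Anxa6 (31.9 ± 0.466 CPM per kilobase) and Anxa7 (28.8 ± 2.09) led, followed by Anxa5 (15.8 ± 3.80) and Anxa4 (14.1 ± 1.40). The libraries of Anxa6 and Anxa7 did not overlap, nor did those of Anxa7 and Anxa5, whereas those of Anxa5 and Anxa4 did. Anxa2 (6.99 ± 1.00), Anxa11, Anxa3 and Anxa1 (4.08 ± 0.510) each overlapped the next in order, and Anxa13 (3.11 ± 1.77), Anxa9 (0.413 ± 0.0693), Anxa8 and Anxa10 came last.

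In DKO tumors Anxa5 led with 97.2 ± 25.4 CPM per kilobase and did not overlap the next, Anxa7 (34.8 ± 12.4). Anxa2 (29.4 ± 14.4), Anxa6 (29.2 ± 5.80) and Anxa4 (20.2 ± 2.29) followed with overlapping ranges. In TKO tumors Anxa5 (59.4 ± 25.8) was again first, but its range overlapped that of Anxa7 (37.8 ± 13.3), followed by Anxa6 (24.0 ± 6.55), Anxa4 (16.8 ± 3.41) and Anxa2 (11.9 ± 4.13). The overlap came from TKO 3, in which Anxa5 was at 22.3 CPM per kilobase. In the other 3 TKO tumors Anxa5 was at 62.6 to 80.2 and Anxa7 at 31.4 to 56.7 CPM per kilobase, without overlap.

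The summed level of all 12 annexins was 117 ± 12.5 CPM per kilobase in controls, 239 ± 44.1 in DKO tumors and 171 ± 38.9 in TKO tumors (SD, n = 4 each), or 190.3 ± 8.67 without TKO 3 (n = 3). Anxa5 made up 15.3%, 10.7%, 13.5% and 13.7% of that sum in the control livers, 44.4%, 33.0%, 44.4% and 39.2% in DKO tumors and 40.4%, 40.1%, 19.6% and 32.7% in TKO tumors. Every tumor was above every control, with TKO 3 nearest to them. Anxa2 made up 5.96% ± 0.297 in controls, 12.2% ± 4.89 in DKO tumors and 6.81% ± 1.25 in TKO tumors. Without TKO 3 the shares in TKO tumors were 37.8% ± 4.38 for Anxa5 and 7.32% ± 0.907 for Anxa2.

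**Figure D4:**
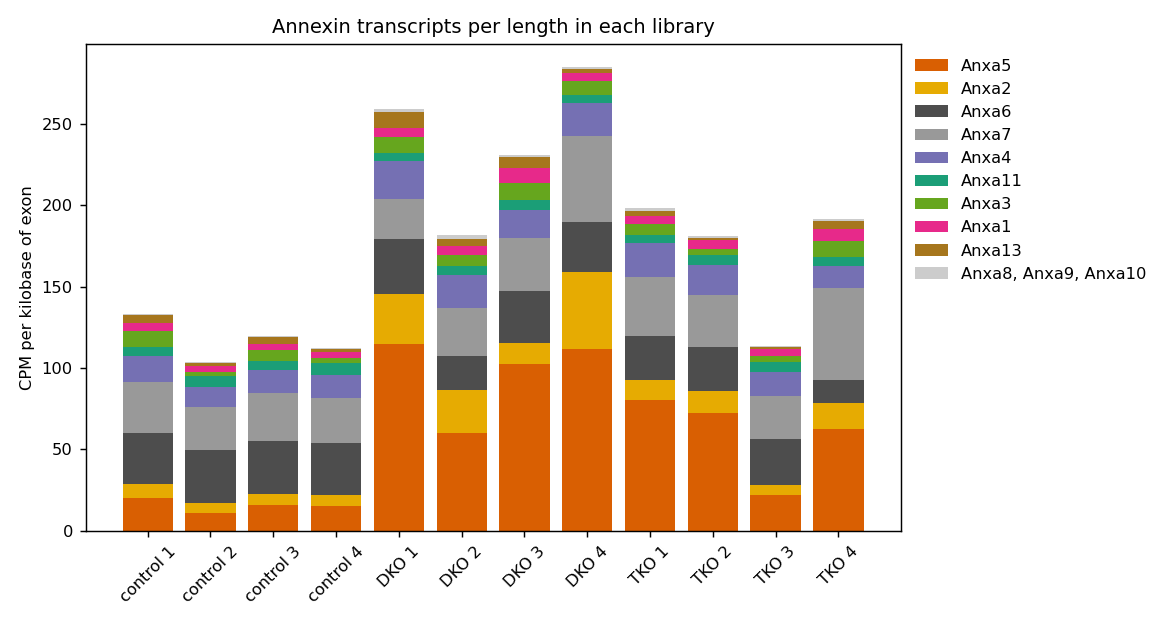
Summed annexin level (CPM per kilobase of exon) in each of the 12 libraries, stacked by gene. Anxa5 takes the lowest segment, between 10.7% and 15.3% of the sum in controls and between 19.6% and 44.4% in the tumors, and TKO 3 is as low in total as the control livers.

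The 5 genes whose log2 CPM was most like that of Anxa5 over the 12 libraries were Esm1 (Pearson's r = 0.979), Ccdc120 (0.975), Etl4 (0.962), Wdr1 (0.955) and Tgfbr2 (0.952). Esm1 encodes a proteoglycan secreted by endothelial cells, Wdr1 an actin-disassembly factor and Tgfbr2 the type II receptor of TGF-beta. Esm1 was at 1.78, 0.369, 1.63 and 1.10 CPM in controls, 31.4, 14.9, 18.6 and 30.2 CPM in DKO tumors and 15.1, 9.24, 1.38 and 17.6 CPM in TKO tumors. The 7 tumors other than TKO 3 were above all controls, and TKO 3 fell among them. These libraries share their group means and TKO 3, so the coefficients are a description. With Spearman's coefficient 1 of the 5 (Esm1) stayed among the 5 most alike, and over the 8 tumors alone 0 did.

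Among the annexins the one most like Anxa5 was Anxa2 (r = 0.839, place 210 of 13881 genes), followed by Anxa4 (0.796, place 416), Anxa1 (0.726, place 880) and Anxa9 (0.715, place 944). Anxa11 was near the other end of the list (r = -0.618, place 12424). Over the 8 tumors alone r was 0.722 for Anxa2, 0.677 for Anxa3, 0.645 for Anxa13, 0.595 for Anxa4, 0.323 for Anxa1, 0.302 for Anxa9 and -0.442 for Anxa11, so the order after Anxa2 depended on the control livers.

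**Figure D5:**
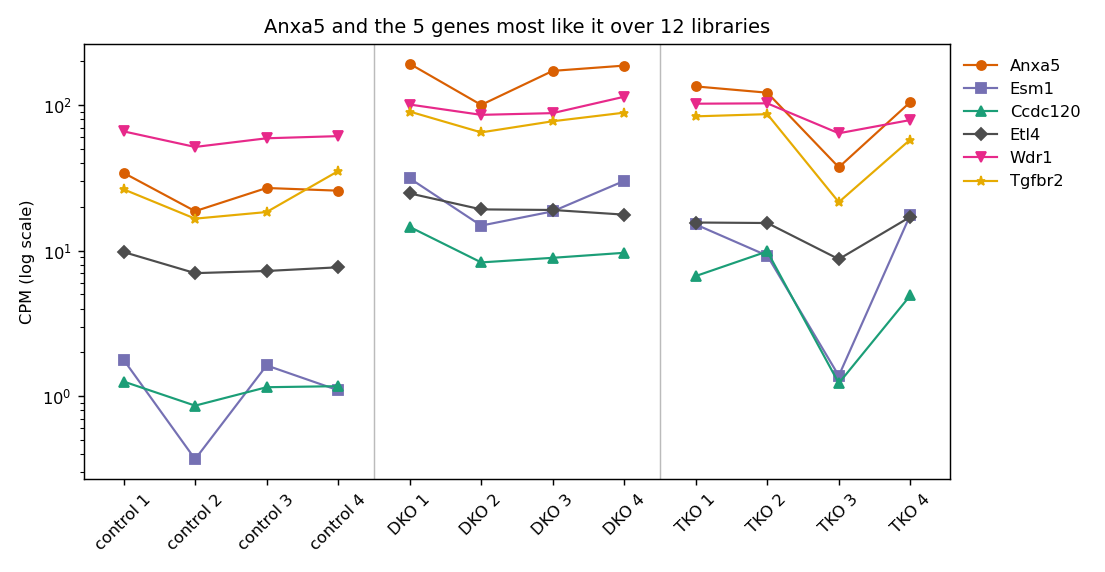
Levels (CPM, log axis) of Anxa5 and the 5 genes most like it by Pearson's r over the 12 libraries, with lines joining the libraries of a group only to guide the eye. In TKO 3 all 6 genes are below the other TKO tumors, and Esm1, at 1.38, lies within the control range of 0.369 to 1.78.

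The partners of the annexins were read from lists chosen by their known roles. Beside the counts that follow, an unadjusted p under 0.05 was found for 24.0% of all genes in DKO tumors against controls, 16.3% in TKO tumors and 9.0% between the tumors, and DESeq2 called 10.4%, 3.49% and 0.398%. Of the S100 proteins, small calcium-binding proteins that pair with annexin tails, 10 of 16 were tested and edgeR called 0 in each comparison, with 2 genes in DKO and 1 in TKO tumors against controls and 1 between the tumors at an unadjusted p under 0.05. DESeq2 called S100a11, the partner of annexin A1, in DKO tumors, and no S100 gene in the other comparisons. S100a11 was at 2.82, 3.32, 3.59 and 2.27 CPM in controls, 5.83, 4.67, 7.87 and 10.7 CPM in DKO tumors and 7.60, 3.70, 3.61 and 5.82 CPM in TKO tumors. All tumors were thus above all controls, TKO 3 only narrowly, by log2 differences of 1.28 (SE 0.318, edgeR adjusted p = 0.0545) in DKO and 0.79 (SE 0.318, adjusted p = 0.247) in TKO tumors.

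S100a10, the partner of annexin A2, was at 25.5, 67.9, 29.7 and 19.0 CPM in controls, 47.5, 32.2, 22.6 and 71.0 CPM in DKO tumors and 35.9, 14.6, 38.3 and 52.6 CPM in TKO tumors, with the groups overlapping throughout. The log2 difference was 0.29 (SE 0.466) in DKO and close to 0 (SE 0.467) in TKO tumors, where Anxa2 was at 2.07 and 0.77. S100a6 had log2 differences of -0.09 and 0.13, and S100a4 of -0.84 and -0.05, in DKO and TKO tumors, and neither passed the test.

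Of 24 genes that expose or recognise phosphatidylserine, the ligand of annexin A5, 21 were tested and edgeR called 0 in each comparison, with 5, 3 and 3 at an unadjusted p under 0.05 in DKO tumors, in TKO tumors and between them. Among the genes DESeq2 called, Plscr1 and Mfge8 were higher in DKO tumors and Tyro3 was higher in TKO tumors, and it called 0 between the tumors. Mfge8, which bridges exposed phosphatidylserine to phagocytes, had the largest log2 difference in DKO tumors, at 61.4 ± 14.4 CPM against 24.1 ± 9.60 in controls (1.35, SE 0.371, edgeR adjusted p = 0.0687). The medians of the list were 0.17 in DKO and 0.07 in TKO tumors.

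Of 17 membrane repair and vesicle partners, 16 were tested and edgeR called 0, with 7 genes in DKO tumors, 5 in TKO tumors and 0 between the tumors at an unadjusted p under 0.05. DESeq2 called Capn2, Cav1 and Cavin1 higher in DKO tumors, Capn1 higher in TKO tumors and 0 between them. Cav1, the main coat protein of caveolae, had the largest log2 difference (1.76, SE 0.460, edgeR adjusted p = 0.0618 in DKO tumors). Of the formyl peptide receptors and cytosolic phospholipase A2, 3 of 4 genes were tested and 0 were called by edgeR or DESeq2, with 0 at an unadjusted p under 0.05. Fpr2, a receptor of annexin A1, was at 2.01 ± 1.17 CPM in controls, 1.48 ± 0.796 in DKO tumors and 1.25 ± 0.462 in TKO tumors.

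Annexins are also made by cells of the liver other than hepatocytes, so marker lists are given beside the values above. The summed level of 10 bile duct and progenitor markers was 49.5 to 81.6 CPM in controls, 178 to 302 CPM in DKO tumors and 59.4 to 218 CPM in TKO tumors, with TKO 3 lowest. Much of this sum was Cdh1, the cadherin of epithelia, at 8.88 to 22.5 CPM in controls, 90.6 to 159.8 CPM in DKO tumors and 7.53 to 171 CPM in TKO tumors. Without Cdh1 the other 9 genes summed to 34.1 to 62.0 CPM in controls, 87.9 to 142 CPM in DKO tumors and 38.5 to 72.5 CPM in TKO tumors, so that the TKO tumors overlapped the controls. Of the 8 tested genes of the list edgeR called Prom1 higher in DKO tumors (38.2 ± 23.4 CPM against 2.61 ± 0.726, log2 difference 3.85, SE 0.587, adjusted p = 0.0292), and 0 in the other comparisons, with 1 gene in TKO tumors against controls and 2 between the tumors at an unadjusted p under 0.05. DESeq2 called Cdh1 and Prom1 higher in DKO tumors, Cdh1 higher in TKO tumors and Prom1 lower in TKO than in DKO tumors. Endothelial markers summed to 114 to 175 CPM in controls, 151 to 224 CPM in DKO tumors and 165 to 283 CPM in TKO tumors. Of these 10 genes edgeR called Emcn higher in DKO tumors (7.23 ± 4.71 CPM against 1.70 ± 0.404, log2 difference 2.07, SE 0.470, adjusted p = 0.0475) and 0 in the other comparisons, with 2 genes in TKO tumors and 0 between the tumors at an unadjusted p under 0.05. DESeq2 called Pecam1, Lyve1 and Emcn higher in DKO tumors and 0 in the others. Pecam1 was at 10.6 to 22.2 CPM in controls, 21.8 to 69.5 CPM in DKO tumors and 24.4 to 33.2 CPM in TKO tumors.

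The macrophage list ran from 299 to 751 CPM in controls, from 178 to 631 CPM in DKO tumors and from 266 to 806 CPM in TKO tumors. The stellate cell and fibroblast list ran from 283 to 466 CPM, from 189 to 629 CPM and from 242 to 454 CPM in the same order. Neutrophil markers reached at most 16.5 CPM and lymphocyte markers at most 22.3 CPM in any library, with the defining neutrophil marker Ly6g at 0 to 5 counts and Cd3e of T cells at 12 to 46 counts. Adgre1 of macrophages was at 8.37 to 35.9 CPM and Col1a1 of fibroblasts at 12.7 to 42.8 CPM over the 12 libraries, with overlapping groups. edgeR called 0 genes of these 4 lists, and 0 of the 10 hepatocyte markers, in each comparison. At an unadjusted p under 0.05 were Ttr, C1qa and Nkg7 in DKO tumors, Marco in TKO tumors and Nkg7 between the tumors, and DESeq2 called only Ttr, lower in DKO tumors. The parts of bile duct, progenitor and endothelial cells in the levels of Anxa5, Anxa2 and the other annexins were not tested.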

How the data were processed

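The libraries hold poly(A) RNA of 12 mice, read on a SOLiD machine. The authors aligned the reads to mm9 using BWA and made gene counts using featureCounts. What they deposited is one table of raw counts over 26301 Entrez genes, not normalized. Versions, strand handling and the fate of reads with several matches are not given in the sources used here. Symbols (24191 genes, 99.4% of counts) and promoters came from RefSeq GRCm38.p6, and exon lengths and positions from GENCODE vM1 on mm9. An exon length held every base in any annotated exon of the gene, so it can exceed the length of the transcript made.

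Counts were analysed with edgeR 4.0.16 in R 4.3.3 (TMM scaling, filterByExpr, 12 libraries with a mean per group, quasi-likelihood test, Benjamini-Hochberg adjustment over 13882 genes, threshold 0.05). CPM used the TMM-scaled totals, and log2 CPM a prior count of 2. Intervals are 95% from the model. SE is the log2 difference divided by the root of F. DESeq2 1.42.0 and limma 3.58.1 (voom with quality weights) were alternatives, with other scalings and filters, a replicate block, a sex-linked covariate, the 8 libraries of a comparison alone, a threshold of 0.1 and each library left out.

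The members, lists and tests were chosen with earlier results of these data known. The genes named were the 12 annexins, 4 S100 partners, the genes edgeR called in each other list or else its largest change, 1 defining marker per cell type where it bears on a result, and the 5 genes most like Anxa5. Some genes of the lists, and the list of plasminogen activation, are not reported here. The genes DESeq2 called were named after their values were seen, as were Epcam, Cdh1 and Mindy1, and the marker sum without Cdh1 was added then. Each library is a separate mouse, so p-values measure the spread between mice, counting error included. No libraries were alike enough to be duplicates. The most alike pair of a group was control 2 and control 3, with a chi-square per gene of 18.4. The other pairs had 57.9 to 341. Without either control 2 or control 3, edgeR called 0 genes in DKO tumors. The script was tested on simulated data. Replicate numbers were not treated as pairs, since same-numbered libraries come from different mice. Their deviations correlated at -0.174 to 0.370 over all comparisons. Between TKO and DKO tumors the coefficients were 0.205, -0.00565, 0.370 and 0.342 for replicates 1 to 4. All but replicate 2 were there most like the library of the same number. Whether same-numbered tumors share a batch was not tested, and calls with a replicate block are given below.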

Additional observations from a re-analysis of the deposited data

Results flagged for a closer look

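In each annexin and group, the highest and the lowest library were compared with the others of their group. Of 30 such groups of 4, 2 held a library whose gap to its neighbour was large for the range of the group, and chance gives about 1 in 20. Anxa1 was at 24.0 CPM in DKO 3, against 13.3 to 14.3 CPM in the other DKO tumors. Anxa6 was at 41.6 CPM in TKO 4, against 77.8 to 82.2 CPM in the other TKO tumors.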

How the results depend on the processing

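Against 2 annexins called in DKO tumors, a threshold of 0.1 gave 5, voom 5, DESeq2 4 and the sex-linked covariate 0, and leaving out a library gave 0 to 2 (0 without control 2, 3 or 4, DKO 1 or DKO 4, and 1 without DKO 2). The number of all genes called there, 336, became 1460 at 0.1, 59 with total counts, 0 with the covariate, 759 in 8 libraries, 1804 with voom, 1518 with DESeq2 and 0 to 651 without a library. The calls of Prom1 and Emcn are among these 336, and none was made without control 2 or 3. Against 0 annexins called in TKO tumors, a threshold of 0.1, no filter, voom and DESeq2 each gave 1, Anxa5, and leaving out a library 0 to 1 (1 without TKO 3). Its adjusted p was 8.53e-05 to 0.281 over the alternatives, and its log2 difference 1.73 to 2.18. The 12 genes called there became 80 at 0.1, 22 without a filter, 0 with the covariate, 97 with voom, 507 with DESeq2 and 0 to 231 without a library (231 without TKO 3). Between the tumors DESeq2 called 56 genes against 0. The covariate came from sex-linked genes, although every library had 1 to 6 counts of Xist and 472 to 1126 of Ddx3y. All libraries thus read as male, so the covariate held differences in the level of these genes and not in sex. With the replicate number as a block, 509 and 1 genes were called in DKO and TKO tumors, and 2, 0 and 0 annexins in the 3 comparisons, as without it. Of the 5 genes most like Anxa5, 1 remained with Spearman's coefficient and 0 in the 8 tumors.

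Single genes changed sign as follows. For TKO tumors against controls, Anxa3 (-0.32 to 0.50 when a library was left out) was at -0.19 without control 2, -0.14 without control 4, -0.32 without TKO 4 and -0.16 with voom, Anxa11 at 0.0509 with total counts, and Anxa13 (-0.82 to 0.12) at 0.12 without control 1, 0.02 without TKO 2 and 0.04 without TKO 3. Between the tumors, Anxa1 (-0.26 to 0.11) was at 0.11 without DKO 3, and Anxa7 (-0.14 to 0.39) at -0.01 without DKO 1 and -0.14 without TKO 4. None of these passed the test in any setting. The differences of Anxa4 and Anxa9 in DKO tumors became 0.34 and 0.91 with the covariate. Anxa9 dropped out where 10 counts were asked of every library. The cause of these changes was not tested.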
